A study of Mus musculus with 6 samples.

Results

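The Janus kinases (JAKs) and the STAT factors are the kinases and transcription factors through which cytokine receptors signal. They were examined in newly made RNA of mouse embryonic stem cells after 2 h of 4-hydroxytamoxifen (4OHT). The members were taken by gene symbol and comprise the 4 kinases Jak1, Jak2, Jak3 and Tyk2 and the 5 factors Stat2, Stat3, Stat5a, Stat5b and Stat6, 9 of the 25899 symbols in the deposited table. The rule names genes and uses no measured value, although it was drawn up with earlier results of these data known. All 9 passed the filter on low counts, as did 13869 symbols in all. The cells were E14tg2a embryonic stem cells (129SV background) that carry a stable cRAF-ErT2 cassette, a RAF kinase fused to a hormone-binding domain that answers to 4OHT and, once active, feeds the ERK pathway. They were kept in serum with LIF and 2 µM Chir99021, a GSK3 inhibitor. For the 24 h before treatment the medium was serum with LIF and 250 nM PD173074, an FGF receptor inhibitor. One group then received 250 nM 4OHT for 2 h and the other was left untreated, with 3 clones (a, b and c) in each group. Both groups carried the cassette and both had LIF, PD173074 and 5 mM ethynyl uridine, the label built into new RNA, for the last 15 min. The labels name neither a solvent control nor cells without the cassette, so an effect of 4OHT itself cannot be told apart from that of the kinase.

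In the pathway as it is generally understood, a cytokine brings receptor chains together, JAKs bound to their tails phosphorylate them, and STATs that dock there are phosphorylated, pair up and enter the nucleus. Different receptors use different members: the LIF receptor with gp130 uses mainly JAK1 and STAT3, type I interferon receptors use JAK1 and TYK2 with STAT2, and receptors with the common gamma chain use JAK1 and JAK3. In mouse embryonic stem cells LIF, acting through STAT3, helps to hold the self-renewing state.

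The libraries held 7295334 to 9431819 counts after 4OHT and 9745747 to 12168380 counts untreated, and levels below are CPM, counts set to a common library size after TMM scaling, unless said otherwise. A count of 3, taken as the limit for a zero, stood for 0.343 to 0.438 CPM after 4OHT and 0.228 to 0.294 CPM untreated. All 9 embryonic stem cell markers were present at a mean of at least 1 CPM over the 6 libraries, and their sum was 2078 to 2472 CPM after 4OHT and 2730 to 2814 CPM untreated. They did not move together. Mean CPM after 4OHT, then untreated, was higher for Zfp42 (1020, 641), Pou5f1 (225, 175) and Dppa4 (113, 62.1). It was lower for Nanog (100, 317), Esrrb (261, 654), Sall4 (160, 355) and Tdgf1 (111, 279). Sox2 (265, 273) and Utf1 (28.1, 29.4) were nearly level. Blood cell markers, of interest because JAKs and STATs are abundant in such cells, summed to 43.6 to 44.9 CPM after 4OHT and 16.2 to 20.97 CPM untreated. Lck made up most of this (38.2 CPM after 4OHT, 14.3 CPM untreated), Itgam was at 0 in all 6 libraries and 3 of 11 reached a mean of 1 CPM over the 6 libraries. Fibroblast markers summed to 22.2 to 27.0 CPM after 4OHT and 4.10 to 6.47 CPM untreated, led by Twist1 (18.1 CPM after 4OHT, 0.499 CPM untreated), with Lum and Postn at 0 in all 6 libraries. Primitive endoderm markers summed to 19.1 to 20.8 CPM after 4OHT and 43.2 to 52.0 CPM untreated, led by Dab2 (9.89 CPM after 4OHT, 37.8 CPM untreated). The fall of this sum was mostly that of Dab2. Mean CPM after 4OHT, then untreated, was 5.62 and 3.90 for Gata4, 1.76 and 2.67 for Gata6, and 1.89 and 1.72 for Pdgfra. Sox17, Sox7 and Foxa2 stayed near or below the limit for a zero in both groups. The part of other cells in the results was not tested. In bulk libraries fewer cells of a type and less RNA per cell cannot be told apart. Libraries of clone c stood further from those of a and b within each group than a and b from each other, and every call below was also made without clone c.

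Of the 9 members, Jak1, Jak2, Stat5b and Stat6 rose after 4OHT, Jak3 and Stat2 fell, and Tyk2, Stat3 and Stat5a did not pass the test (edgeR quasi-likelihood test, Benjamini-Hochberg adjusted p below 0.05). Over all tested genes 3953 (28.5%) rose and 3968 (28.6%) fell, 57.1% in either direction, so 6 of 9 changed is near the background. The sizes were further apart: the median absolute log2 fold change was 1.08 over the 9 members and 0.39 over all tested genes. Since the members were chosen with earlier results of these data known, this contrast is description only. The median signed change was 0.52 over the members and 0.00 over all tested genes. Changes the size of the 3 steepest rises were uncommon in the table, where 287 genes (2.07%) rose by at least 2 on the log2 scale and 108 (0.779%) by at least 3. Of these 3 rises, that of Stat6 may include RNA of the neighbouring Nab2, as described below. In 7 members the 3 treated and the 3 untreated values did not overlap, which also held for 63.3% of all tested genes. The exceptions were Tyk2 and Stat5a.

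**Figure D1:**
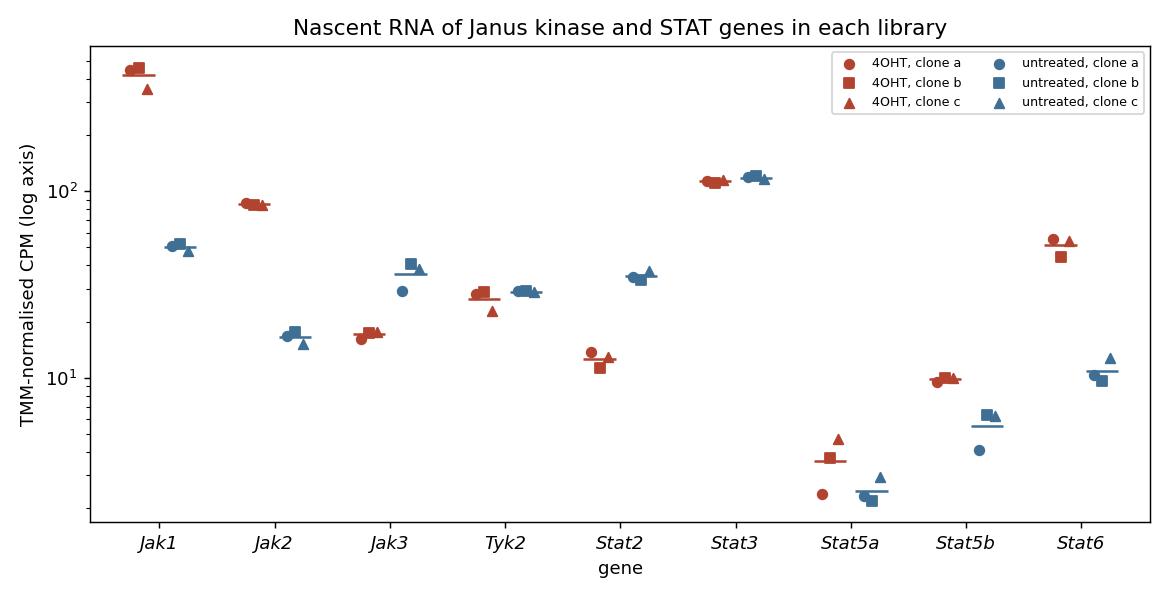
CPM of the 9 members in each library (TMM-normalised) on a log axis, with the 4OHT libraries left of the untreated ones, clones a, b and c as circles, squares and triangles, and a bar at each group's mean. Jak1 lies at 354 to 459 CPM after 4OHT and 47.9 to 52.4 CPM untreated, whereas Stat3 lies at 111 to 115 CPM after 4OHT and 116 to 120 CPM untreated.

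Among the kinases Jak1, which serves nearly all of the receptor classes above, gave the greatest rise of the 9. Jak1 (chromosome 4, 101152367 to 101265282, minus strand, GRCm38) had 444, 459 and 354 CPM in 4OHT clones a, b and c, against 50.7, 52.4 and 47.9 CPM in untreated clones a, b and c. Every treated library lay far above every untreated one, and treated clone c was the lowest of its group. The log2 fold change was 3.06 ± 0.10 (SE), or 8.32-fold (edgeR adjusted p = 1.8e-08), with 3.13, 3.13 and 2.88 in clones a, b and c. It ranked 105th among all tested genes by size of rise, and the value ranged from 2.86 to 3.17 over the alternative settings.

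Jak2, the kinase of the erythropoietin, thrombopoietin, growth hormone and prolactin receptors, also rose. On chromosome 19 (29251828 to 29313080, plus strand), Jak2 had 86.6, 84.5 and 83.9 CPM in 4OHT clones a, b and c, against 16.8, 17.6 and 15.1 CPM in the untreated clones. The groups lay far apart and the 3 treated libraries were nearly equal. The log2 fold change was 2.36 ± 0.08 (SE), 5.14-fold (edgeR adjusted p = 1.8e-08), the 209th highest of all tested genes.

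Jak3, best known from lymphoid cells, moved the other way. Jak3 (chromosome 8, 71676296 to 71690575, plus strand) had 16.2, 17.4 and 17.7 CPM in 4OHT clones a, b and c, against 29.2, 40.5 and 38.5 CPM in the untreated clones. All 3 treated libraries were lower than all 3 untreated ones, and the untreated spread was wide, with clone a lowest. The log2 fold change was -1.08 ± 0.13 (SE), 0.474-fold (edgeR adjusted p = 7.8e-05), with -0.84, -1.21 and -1.11 in clones a, b and c. Its span overlaps that of Insl3, a hormone gene of the testis on the same strand, over 1362 bp, with 404 bp of shared exon. Insl3 had no count in any library, but how reads that fall on both genes were counted is not given. The zero therefore does not show whether RNA of Insl3 was present.

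Tyk2, the partner kinase of JAK1 at type I interferon receptors, did not pass the test. Tyk2 (chromosome 9, 21104068 to 21131243, minus strand) had 27.98, 29.0 and 22.8 CPM in 4OHT clones a, b and c, against 29.1, 29.2 and 28.7 CPM in the untreated clones. The groups overlapped, with treated clone c below the rest. Its log2 fold change was -0.12 ± 0.10 (SE; edgeR adjusted p = 0.34) with an approximate 95% interval of -0.32 to 0.08. The ends of this interval lie far inside the changes of Jak1 and Jak2. Intervals here and below apply a normal quantile to the SE, which makes them somewhat too narrow with so few libraries. Scaling by library size alone moved all fold changes by -0.20 and Tyk2 to -0.32 (edgeR adjusted p = 0.021), which passes as lower. An antisense gene, 1700084C06Rik, overlaps Tyk2 and is not used here, so its reads and those of Tyk2 cannot be told apart without strand.

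The sequences around the start sites of the 2 kinases with the steepest rise and of the one that fell are shown for comparison, each with 250 bases before and 50 bases from the annotated start (RefSeq, GRCm38.p6). They are the minus strand of chr4:101265174-101265473 for Jak1, and the plus strand of chr19:29251553-29251852 for Jak2 and of chr8:71676133-71676432 for Jak3, with a cAMP response element in capitals.
Jak1: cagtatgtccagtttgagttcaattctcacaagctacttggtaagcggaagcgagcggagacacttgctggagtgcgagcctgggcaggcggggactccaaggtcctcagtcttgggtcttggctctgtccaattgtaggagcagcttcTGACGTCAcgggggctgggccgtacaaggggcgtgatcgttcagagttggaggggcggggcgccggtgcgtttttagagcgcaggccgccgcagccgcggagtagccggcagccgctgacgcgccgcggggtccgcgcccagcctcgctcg
Jak2: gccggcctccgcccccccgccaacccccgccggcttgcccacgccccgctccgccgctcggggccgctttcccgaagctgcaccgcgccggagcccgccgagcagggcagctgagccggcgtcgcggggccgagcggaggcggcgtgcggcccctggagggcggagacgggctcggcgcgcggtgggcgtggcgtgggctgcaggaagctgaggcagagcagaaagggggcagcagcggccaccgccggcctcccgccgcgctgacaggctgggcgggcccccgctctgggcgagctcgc
Jak3: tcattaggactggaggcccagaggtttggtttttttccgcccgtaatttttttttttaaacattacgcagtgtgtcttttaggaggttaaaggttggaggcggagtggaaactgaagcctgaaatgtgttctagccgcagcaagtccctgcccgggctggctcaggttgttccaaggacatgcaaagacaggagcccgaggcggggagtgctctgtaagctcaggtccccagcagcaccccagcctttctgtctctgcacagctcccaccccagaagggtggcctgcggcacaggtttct
The TGACGTCA in Jak1 begins 101 bases before the start. It was the only match in the 11 promoters of the 9 members to any of the 6 motifs searched on both strands, and 1.79% of all 32851 promoters in the RefSeq table hold it. The other motifs were TGANTCA (AP-1, in 7.81% of all promoters), CCGGAAG (ETS, in 8.86%), GCGTGGGCG (EGR, in 0.612%), TTCNNNGAA (STAT, in 8.30%) and the serum response factor's CArG box (in 1.63%). Without a match these letters are not in the window, and a match marks letters, not a bound site. GC content was 64.7% in Jak1, 81.0% in Jak2 and 54.3% in Jak3, against a median of 52.7% over all promoters.

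Among the STATs the steepest rise was that of Stat6, the factor of interleukin-4 and interleukin-13 signalling. Stat6 (chromosome 10, 127642986 to 127660957, plus strand) had 55.2, 44.7 and 54.1 CPM in 4OHT clones a, b and c, against 10.3, 9.56 and 12.7 CPM in the untreated clones. The groups did not overlap, and the lowest treated library lay above the highest untreated one by more than either group's range. The log2 fold change was 2.25 ± 0.13 (SE), 4.74-fold (edgeR adjusted p = 4.2e-07), the 233rd highest of all tested genes.

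Stat6 ends against Nab2, the gene of a corepressor that binds EGR proteins. Nab2 lies on the other strand (127660918 to 127668568, minus strand), and the 3′ ends of the genes overlap by 40 bp, 0.91% of the exon length of Stat6. Nab2 had 341, 297 and 357 CPM in 4OHT clones a, b and c, against 6.97, 6.22 and 9.41 CPM in the untreated clones. That is a log2 fold change of 5.48 ± 0.13 (SE; edgeR adjusted p = 3.5e-09). The gain of Stat6 was 44.8, 35.1 and 41.3 CPM in clones a, b and c, which is 13.4%, 12.1% and 11.9% of the gain of Nab2 in the same clone. The sources used here do not say whether strand was used in counting or whether introns were counted, so RNA running past the end of Nab2 into Stat6 cannot be told apart from RNA of Stat6, and its part was not tested.

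Stat2, the factor that joins IRF9 in the interferon response, fell most of the 9. Stat2 (chromosome 10, 128270559 to 128292849, plus strand) had 13.8, 11.3 and 13.0 CPM in 4OHT clones a, b and c, against 34.8, 33.4 and 37.4 CPM in the untreated clones. Both groups were tight and lay apart in every clone. The log2 fold change was -1.47 ± 0.11 (SE), 0.361-fold (edgeR adjusted p = 2.3e-06), with -1.32, -1.55 and -1.51 in clones a, b and c. By size of fall it was 558th of all tested genes.

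Stat6 and Stat2 lie on the same chromosome and their counts moved in opposite directions, although those of Stat6 may include RNA of Nab2. Their start regions are therefore set side by side. They are the plus strand of chr10:127642736-127643035 and of chr10:128270248-128270547 (RefSeq, GRCm38.p6), with 250 bases before the annotated start and 50 from it, and have no capitals because none of the 6 motifs matched.
Stat6: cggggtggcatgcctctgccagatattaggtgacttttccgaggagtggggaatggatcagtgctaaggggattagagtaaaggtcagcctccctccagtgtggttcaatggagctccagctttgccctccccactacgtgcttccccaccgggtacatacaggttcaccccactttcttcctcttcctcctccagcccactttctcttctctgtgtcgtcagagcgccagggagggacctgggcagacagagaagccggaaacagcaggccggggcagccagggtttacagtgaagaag
Stat2: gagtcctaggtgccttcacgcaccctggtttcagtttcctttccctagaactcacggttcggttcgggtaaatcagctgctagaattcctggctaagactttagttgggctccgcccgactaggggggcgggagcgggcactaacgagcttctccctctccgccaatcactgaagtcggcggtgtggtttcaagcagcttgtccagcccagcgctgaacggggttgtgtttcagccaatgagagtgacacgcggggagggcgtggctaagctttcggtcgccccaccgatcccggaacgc
GC content was 57.3% in Stat6 and 59.3% in Stat2.

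Stat3, the main factor of LIF signalling in these cells, did not pass the test. On chromosome 11 (100885098 to 100939540, minus strand), Stat3 had 113, 111 and 115 CPM in 4OHT clones a, b and c, against 119, 119.9 and 116 CPM in the untreated clones. All treated libraries were below all untreated ones, but by little. The log2 fold change was -0.07 ± 0.06 (SE; edgeR adjusted p = 0.34), with an approximate 95% interval of -0.18 to 0.05. With library size alone it was -0.27 (edgeR adjusted p = 0.0041), which passes as lower, since that scaling moves all genes by -0.20.

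Stat5a and Stat5b, near copies that serve prolactin, growth hormone and interleukin-2 family receptors, were the lowest of the 9. Stat5b (chromosome 11, 100780731 to 100850724, minus strand) had 9.48, 10.02 and 9.94 CPM in 4OHT clones a, b and c, against 4.09, 6.30 and 6.27 CPM in the untreated clones. The groups did not overlap, with untreated clone a lowest, and Stat5b rose by a log2 fold change of 0.82 ± 0.18 (SE), 1.77-fold (edgeR adjusted p = 0.0033). Stat5a (100859351 to 100885169, plus strand) had 2.40, 3.71 and 4.68 CPM in 4OHT clones a, b and c, against 2.32, 2.20 and 2.94 CPM in the untreated clones, from 83 counts in all after 4OHT and 88 untreated. The groups overlapped through treated clone a. Its log2 fold change was 0.52 ± 0.27 (SE; edgeR adjusted p = 0.13), with an approximate 95% interval of -0.02 to 1.05. Without the 4OHT library of clone a it was 0.76 (edgeR adjusted p = 0.036), which passes as higher, and at this depth a rise of Stat5a could not be separated from the spread. Of all 50-base stretches in the transcripts, 608 occur in both genes, of 7407 in Stat5a and 5535 in Stat5b. How reads that match both were counted is not given in the sources used here, so the split between the pair is uncertain. The 3′ ends of Stat5a and Stat3 also overlap by 72 bp.

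**Figure D2:**
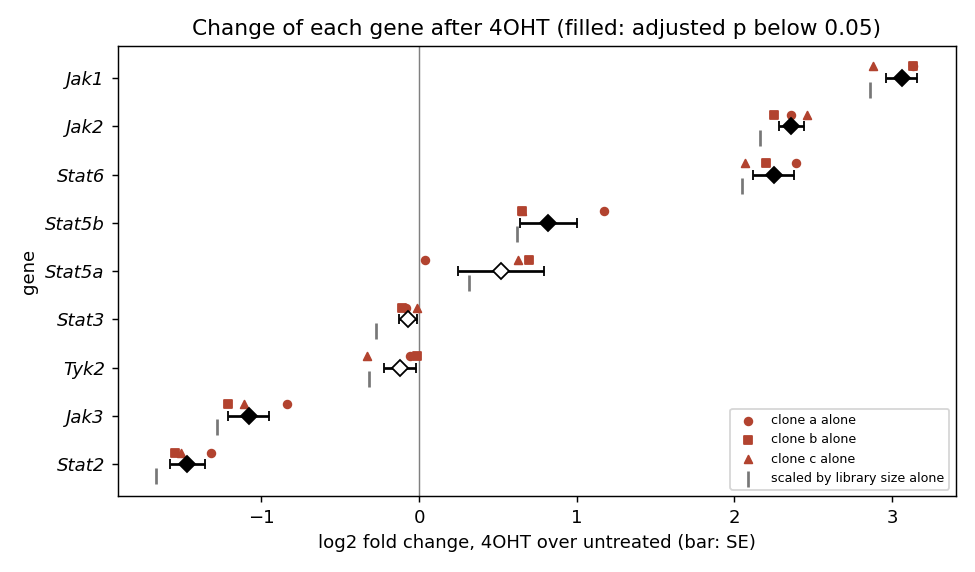
Log2 fold change of each member, 4OHT over untreated, as a diamond with a bar for its SE (edgeR, TMM scaling; filled where the adjusted p is below 0.05), with the value in each clone alone as a small mark and the value under library size scaling as a grey line. Jak1, Jak2 and Stat6 lie between 2.25 and 3.06 in the TMM fit, and Tyk2 and Stat3 lie within 0.12 of 0.

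A measure that no scaling between libraries moves is each gene's share of its family's counts. The 4 JAKs together made 575, 590.1 and 478 CPM in 4OHT clones a, b and c and 126, 139.8 and 130.2 CPM in the untreated clones, a ratio of means of 4.15. Jak1 made up 76.4% ± 2.06 of the JAK counts after 4OHT and 38.2% ± 1.88 untreated (SD, n = 3 each). Jak2 held 15.6% ± 1.68 after 4OHT and 12.5% ± 0.871 untreated. Jak3 held 3.16% ± 0.471 after 4OHT and 27.3% ± 3.53 untreated, and Tyk2 held 4.85% ± 0.073 after 4OHT and 22.0% ± 1.11 untreated. The untreated kinase counts were thus spread over 4 genes, and those after 4OHT were mostly of Jak1. The shares of Tyk2 show only unequal change within the family, since its own CPM did not pass the test.

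The 5 STATs made 194, 181 and 196 CPM in 4OHT clones a, b and c and 171, 171 and 175 CPM in the untreated clones, a ratio of means of 1.10. Stat3 held the largest share of the STAT counts in both groups, 59.4% ± 1.80 after 4OHT and 68.6% ± 2.19 untreated (SD, n = 3 each). Stat6 held 26.9% ± 1.95 after 4OHT and 6.30% ± 0.871 untreated, and Stat2 held 6.66% ± 0.450 after 4OHT and 20.4% ± 0.936 untreated. Stat6 and Stat2 thus changed places as the second STAT by counts. Stat5b held 5.16% ± 0.340 after 4OHT and 3.22% ± 0.715 untreated, and Stat5a held 1.89% ± 0.589 after 4OHT and 1.44% ± 0.208 untreated. With Stat6 left out, the other 4 STATs together had 139 ± 3.13 CPM after 4OHT and 162 ± 1.02 CPM untreated (SD, n = 3 each). The share of Stat3 among those 4 was then 8.0 percentage points higher after 4OHT, whereas with Stat6 included the difference was -9.24 points. Groups did not overlap for the shares of any member but Stat5a, and each such difference had an exact two-sided permutation p of 0.1, the smallest that 3 against 3 libraries allow, which is 0.113 after adjustment over the 9 shares. Stat5a had an exact permutation p of 0.4.

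**Figure D3:**
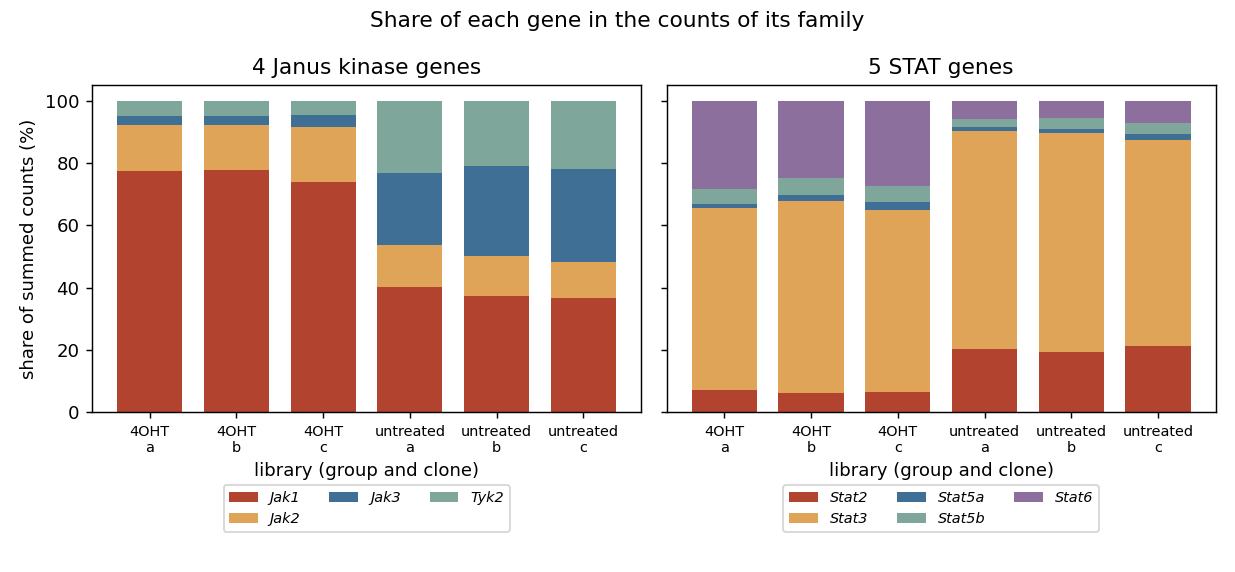
Share of each JAK in the summed JAK counts and of each STAT in the summed STAT counts, in percent, as stacked bars for each library, 4OHT libraries left of untreated ones. Jak1 fills 74.0 to 77.8% of the JAK bar after 4OHT and 36.8 to 40.3% untreated, and Stat6 fills 24.7 to 28.4% of the STAT bar after 4OHT and 5.58 to 7.27% untreated.

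Levels of different genes can be compared only per length, and the sources used here do not say whether exons or whole gene spans were counted, so both orders are given. Per kb of exon, the order after 4OHT was Jak1 (58.0 ± 7.87 CPM per kb, SD, n = 3), Jak2 (16.9), Stat3 (11.9), Stat6 (11.7), Tyk2 (3.87), Jak3 (3.20), Stat2 (2.14), Stat5b (1.77) and Stat5a (0.504). In untreated cells it was Stat3 (12.4 ± 0.228 CPM per kb, SD, n = 3), Jak1 (6.97), Jak3 (6.74), Stat2 (5.94), Tyk2 (4.23), Jak2 (3.28), Stat6 (2.47), Stat5b (1.00) and Stat5a (0.349). The libraries of Stat3 and Stat6 overlapped after 4OHT, and those of Jak1, Jak3 and Stat2 overlapped in turn in untreated cells, so these neighbours have no order beyond their spread. Jak1 led after 4OHT and Stat3 led in untreated cells. Per kb of gene span Jak1 again led after 4OHT at 3.71 CPM per kb, followed by Stat6 at 2.85 and Stat3 at 2.07. In untreated cells it was sixth at 0.446 CPM per kb, while Jak3 at 2.53 and Stat3 at 2.17 were highest and overlapped. The long introns of Jak1 (a span of 112916 bp and 7227 bp of exon) make its rank depend on this choice.

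Genes beside the members are described next, since the use of strand in counting is unknown. Of the 23 tested neighbours within 50 kb, 7 rose and 3 fell, beside the 28.5% and 28.6% of all tested genes given above. Beside Jak1, Raver2, an RNA-binding protein whose 3′ end overlaps that of Jak1 by 4 bp, rose to 53.2 ± 5.85 CPM after 4OHT, against 24.3 ± 0.269 CPM untreated (SD, n = 3 each; log2 fold change 1.14 ± 0.09 SE, edgeR adjusted p = 4.9e-06). Its gain was 8.91%, 7.11% and 7.46% of that of Jak1 in clones a, b and c. Beside Stat3, Cavin1, a coat protein of caveolae whose nearer end is 17.2 kb from the 5′ end of Stat3, rose by 6.07 ± 0.23 on the log2 scale while Stat3 did not pass the test. Beside Stat6, Nemp1, a nuclear envelope protein gene, rose by 1.53 ± 0.09 and Lrp1, a lipoprotein receptor gene, gave 0.04 ± 0.10. Beside Jak3, Unc13a fell by 0.53 (edgeR adjusted p = 0.0017) and Fcho1 gave -0.64 (edgeR adjusted p = 0.023), a call that was lost without the untreated library of clone c, without the 4OHT library of clone a or b, and without clone a or clone b (edgeR adjusted p = 0.06 to 0.14), and its groups overlapped. Beside Stat2, Timeless, a replication fork gene, rose by 0.33 (0.13 and not called with library size alone). Cnpy2, also near Stat2, gave -0.33 and was called lower. That call was lost without clone b, without the 4OHT library of clone b, and in DESeq2 with clone as a replicate block. Il23a, beside Stat2, gave 0.42 (edgeR adjusted p = 0.32). Beside Jak2, Insl6 gave 0.44 (edgeR adjusted p = 0.43). Cdc37, a cochaperone of kinases whose 3′ end lies 1.98 kb from the 5′ end of Tyk2, passed the test at 0.20 (edgeR adjusted p = 0.038), but not with library size alone (0.01), with DESeq2 or without any 1 of the clones. Gm38431, near Tyk2, gave 0.58 (edgeR adjusted p = 0.12), and Ghdc, beside Stat5b, gave -0.26.

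**Figure D4:**
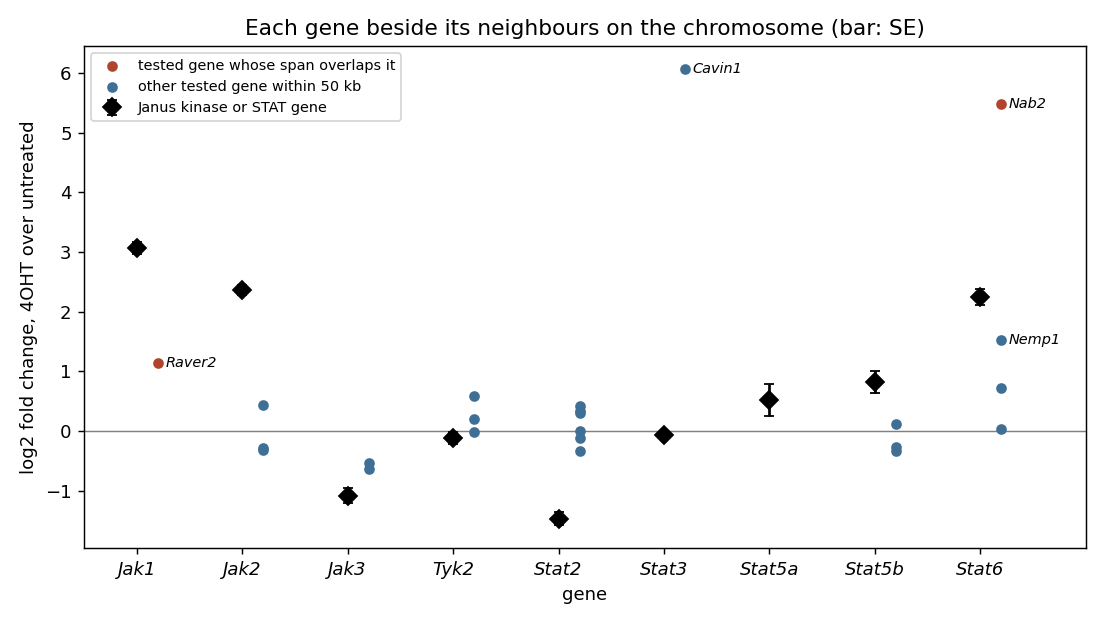
Log2 fold change (4OHT over untreated) of each member (black diamond, bar for its SE) and, right of it, of the tested genes within 50 kb, in red where their span overlaps that of the member and otherwise in blue. Nab2 at 5.48 and Cavin1 at 6.07 lie above the members they adjoin, Stat6 at 2.25 and Stat3 at -0.07.

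The other genes of the pathway were taken from 6 lists, and each list is described by its counts and median beside the median of 0.00 over all tested genes, of which 28.5% rose and 28.6% fell. Of 21 cytokine genes, 11 were tested, of which 1 rose, 3 fell and 7 did not pass, with a median log2 fold change of -0.23. Lif, the gene of the factor that the medium supplies, fell to 5.90 ± 1.47 CPM after 4OHT, against 16.6 ± 2.54 CPM untreated (SD, n = 3 each; log2 fold change -1.50 ± 0.19 SE, edgeR adjusted p = 7.5e-05). Il7 fell by 1.70 and Thpo, the thrombopoietin gene, fell by 1.00. Il11, a cytokine of the LIF family, passed as higher at 0.69 ± 0.22 (SE; edgeR adjusted p = 0.022), but not with library size alone, with DESeq2 or without any 1 of the clones.

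Of 38 receptor genes, 26 were tested, of which 10 rose, 4 fell and 12 did not pass, with a median of 0.19 (with library size alone, 8 rose, 6 fell and the median was -0.01, and without clone b 2 fell). Il6ra, the interleukin-6 receptor chain that pairs with gp130, rose to 36.3 ± 5.25 CPM after 4OHT, against 3.55 ± 0.644 CPM untreated (SD, n = 3 each; log2 fold change 3.36 ± 0.16 SE, edgeR adjusted p = 1.5e-07). Lifr, the LIF receptor, fell to 149 ± 23.0 CPM after 4OHT, against 206 ± 1.71 CPM untreated (log2 fold change -0.47 ± 0.10 SE, edgeR adjusted p = 0.0024). Il6st, which encodes gp130, had 140.4 ± 22.4 CPM after 4OHT and 161 ± 20.5 CPM untreated, and its log2 fold change of -0.19 did not pass (edgeR adjusted p = 0.20). With clone as a replicate block it was -0.20 and passed as lower (edgeR adjusted p = 0.00083), as it did with library size alone (-0.40), without clone c and without the untreated library of clone c. Among other receptor chains, Il13ra1, which works with STAT6, rose by 1.44 and Ifnlr1, the interferon lambda receptor, rose by 1.16. Prlr, the prolactin receptor, fell by 2.16 ± 0.21 on the log2 scale, and Ghr, the growth hormone receptor, gave -0.47, called lower except without clone b (edgeR adjusted p = 0.055). The type I interferon receptor chains Ifnar1 and Ifnar2 gave log2 fold changes of 0.51, called higher, and -0.51, called lower. The call of Ifnar1 was lost without clone a or clone b and with library size alone, and that of Ifnar2 with DESeq2, without clone a or clone b, and when untreated clone a or b or treated clone b or c was omitted. Il2rg, the common gamma chain that JAK3 binds, had no count in any library.

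Of 19 inhibitors, 18 were tested, of which 8 rose, 2 fell and 8 did not pass, with a median of 0.17 that turned to -0.03 with library size alone, where 5 rose and 2 fell. Without clone b 5 rose. Socs5, a suppressor of cytokine signalling, rose to 102 ± 8.59 CPM after 4OHT, against 19.0 ± 1.89 CPM untreated (SD, n = 3 each; log2 fold change 2.43 ± 0.10 SE, edgeR adjusted p = 4.6e-08). Ptpn1, a phosphatase that acts on JAK2 and TYK2, rose by 1.27 ± 0.07, and Sh2b3, the adaptor LNK, rose by 0.70. Ptprc, a phosphatase of blood cells, passed as higher on 40 counts in the 4OHT libraries and 2 in the untreated ones, too few to give a fold. Socs3, the feedback inhibitor of gp130 and a STAT3 target, had 97.2 ± 8.38 CPM after 4OHT and 77.0 ± 10.8 CPM untreated (SD, n = 3 each). Its log2 fold change of 0.34 ± 0.10 (SE; edgeR adjusted p = 0.017) became 0.14 (edgeR adjusted p = 0.24) with library size alone, and the call was also lost without clone a, clone b, treated clone a, or untreated clone a or b. The 2 that fell were Ptpn6, by 0.68, and Cish, by 0.81, and the call of Cish was lost without clone a or clone b, when the 4OHT library of either was omitted, and when untreated clone a was.

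Of 10 partner and adaptor genes, 9 were tested, of which 6 rose and 1 fell, with a median of 0.24. With library size alone 1 rose and 1 fell, and the median was 0.04, and 2 rose without clone a or without clone b. The one that fell was Irf9, the DNA-binding partner of STAT2, with 8.23 ± 0.188 CPM after 4OHT and 15.9 ± 0.217 CPM untreated (SD, n = 3 each; log2 fold change -0.95 ± 0.11 SE, edgeR adjusted p = 6.2e-05). The coactivators Ep300 and Crebbp gave 0.38 and 0.35, and the chaperone Hsp90ab1 gave 0.35, of which only Ep300 passed with library size alone, and the call of Hsp90ab1 was also lost without clone a or clone b.

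Of 16 STAT3 and STAT5 target genes, 15 were tested, of which 6 rose and 8 fell, with a median of -0.44 (with library size alone, 3 rose, 8 fell and the median was -0.64, and without clone b 3 rose). Icam1, an adhesion molecule, fell by 1.77, Bcl3 fell by 1.55 and the kinase gene Pim3 fell by 1.22. Pim1, of the same kinase family, rose by 1.09 ± 0.10, Junb, an AP-1 subunit, rose by 2.62 ± 0.25, and Cebpb, a bZIP factor, rose by 2.21 on the log2 scale. Many of these targets answer to other pathways too, and the part of STATs in them was not tested.

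Of 27 interferon-stimulated genes, 16 were tested, of which 2 rose, 8 fell and 6 did not pass, with a median of -0.59 (with library size alone, 9 fell and the median was -0.79). Those that fell were Irf1, Irf9, Oas1a, Oas2, Xaf1, Tap1, Ifi35 and Parp14. The call of Ifi35 (-0.73) was lost with DESeq2, without clone b or clone c, and when any 1 library other than treated clone a was omitted. Xaf1, a gene tied to cell death, fell to 1.66 ± 0.488 CPM after 4OHT, against 8.37 ± 2.24 CPM untreated (SD, n = 3 each; log2 fold change -2.35 ± 0.29 SE, edgeR adjusted p = 7.3e-05). The oligoadenylate synthetase gene Oas2 fell by 2.77 ± 0.35 from few counts, 12 in the 4OHT libraries and 127 in the untreated ones. Ddx58, the RNA sensor RIG-I, was higher by 0.54, a call lost with library size alone (0.34) and without clone b. Eif2ak2, the kinase PKR, gave 0.18, called higher but not with library size alone (-0.02), DESeq2 or no low-count filter, nor without clone a or clone b or any 1 of their libraries.

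**Figure D5:**
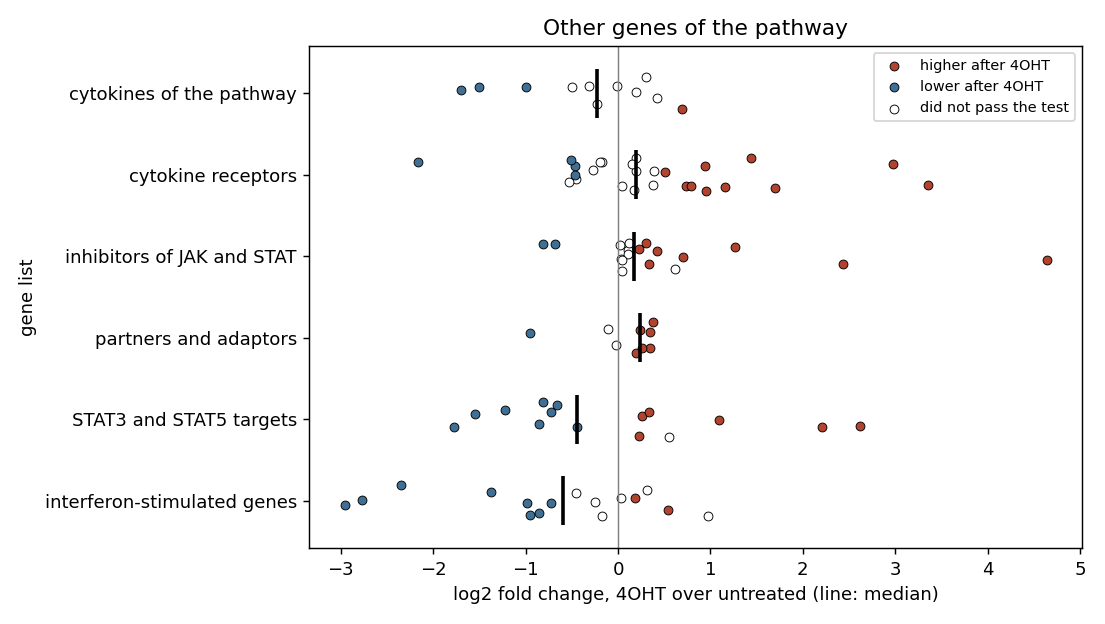
Log2 fold change (4OHT over untreated) of every tested gene in the 6 pathway lists, one row a list, in red where higher, in blue where lower, open where the test was not passed, and with a line at each list's median. The medians run from -0.59 for interferon-stimulated genes to 0.24 for partners and adaptors, and Il6ra at 3.36 is the rightmost receptor. The rightmost inhibitor is Ptprc, fitted on 2 untreated counts.

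For each member the 3 genes with the most similar profile over the 6 libraries were found among 11095 candidates, by Euclidean distance of log2 CPM centred on each gene's mean. With both groups in the profile, this mostly finds genes with a like fold change. For Jak1 they were Twsg1 (distance 0.282), Brdt (0.328) and Rerg (0.394), and Twsg1, a BMP-binding protein, had 286 CPM after 4OHT and 34.6 CPM untreated. For Jak2 they were Hivep1 (0.0765), Lonrf3 (0.0974) and Nr2f6 (0.22). For Stat6 they were Dusp6 (0.317), the phosphatase of ERK, with 131 CPM after 4OHT and 29.8 CPM untreated, Anxa7 (0.319) and Nfu1 (0.326). For Jak3 they were Dpf3 (0.174), Mppe1 (0.216) and Cep78 (0.228), and those of Stat2 included Rad51d (0.0801) and Ptp4a3 (0.167). For Stat5b they were Aff3 (0.182), E2f6 (0.244) and Bend7 (0.257), and for Stat5a Bloc1s4 (0.165), Cdcp1 (0.231) and Nrros (0.259). For Tyk2 they were Casc4 (0.0811), F11r (0.0847) and Lpin2 (0.0884), and for Stat3 Anapc4 (0.0431), Ttll5 (0.0433) and Prmt3 (0.0473).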

How the data were processed

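Ethynyl uridine RNA was purified by click chemistry from total RNA freed of DNA, per the labels' protocols, in 3 clones a group. The deposited values are raw counts per gene symbol, made with featureCounts after STAR on mm10, which are the names the submitters' processing notes give. Their versions, the strand setting, the features counted and the handling of multiply matching reads are not recorded in those notes. The whole table was fitted with edgeR 4.0.16 under R 4.3.3 (filterByExpr, minimum count 10, minimum total 15; TMM; glmQLFit, glmQLFTest; treatment as the only term), and calls needed a Benjamini-Hochberg adjusted p under 0.05. TMM cannot show a change in total RNA output. Alternatives were library size alone, DESeq2's size factors, tests with DESeq2 1.42.0 and limma-voom (limma 3.58.1), no filter on low counts, a minimum CPM of 1 in 3 libraries, a clone block, a threshold of 0.01, and omission of each library and each clone. Positions came from GENCODE M21 (GRCm38, as mm10), where 25557 symbols matched 1 entry, 38 matched several and 304 matched none. All 9 members matched the RefSeq promoter table.

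Clone letters pair the libraries because a letter stands for 1 clone in both groups, per the labels. As a check, same-letter libraries deviated together from their group means, with r of 0.282 for a, 0.165 for b and 0.357 for c, against -0.283 to 0.0682 for unlike letters. Separate culture of the clones is not stated, so p-values cover the spread among these 6 libraries, which may be technical. No library was a copy of another: counts within a group gave a chi-square per gene of 2.29 to 11.3. Limits for zeros cover counting error only, without molecular identifiers. Members and lists were chosen with earlier results of these data known. Named genes were the members, Nab2, genes that overlap a member or are its nearest tested neighbours within 50 kb, up to 4 called genes of each list by smallest adjusted p, Lif, Lifr, Il6st and Socs3, genes that explain a small count, and the 3 nearest profiles of each member, of which 1 is not reported here. Ifnar1, Il2rg, Junb, Cebpb, Irf1, Tap1, Ifi35 and Parp14 were named after their values were seen.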

Additional observations from a re-analysis of the deposited data

How the results depend on the processing

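Of 162 recomputed member fold changes and calls, 159 kept their direction and their side of the threshold, none lost its call and none reversed. With library size alone Tyk2 (-0.32) and Stat3 (-0.27) passed as lower, so that 4 members fell. Stat5a ranged from 0.30 to 0.76 with libraries or clones left out. With clone as a replicate block in edgeR, Stat5a was 0.51 (edgeR adjusted p = 0.068), and the paired fit in edgeR changed no member's call and, of the other named genes, that of Il6st. List counts moved more. The paired edgeR fit called 11 inhibitors higher (8 in the main fit) and 12 receptors higher and 5 lower (10 and 4). It called 3 interferon-stimulated genes higher and 9 lower (2 and 8 in the main fit), and the other lists kept their counts. Among 901 values of neighbours and pathway genes, 814 were unchanged in direction and call, 75 lost and 7 gained a call, and 5 reversed: Eif2ak2 was -0.02 with library size alone, Lrp1 was -0.16 with library size alone and ranged from -0.06 (without clone c; -0.05 without its 4OHT library) to 0.11 with libraries left out, and Insl6 ranged from -0.17 without clone c to 1.10. Of 216 list counts 37 moved by over 1.5 times. With Stat6 left out of the STAT sum, share differences were -12.7 percentage points for Stat2, 8.0 for Stat3, 1.04 for Stat5a and 3.62 for Stat5b. With counts divided by exon length they were 5.29 for Jak2, -27.7 for Jak3, -15.3 for Tyk2, -19.1 for Stat2, -13.5 for Stat3 and 30.5 for Stat6. Of 18 level ranks 13 moved between exon and span lengths. Low counts limit Stat5a and Stat5b most.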
